A study of Mus musculus with 6 samples.

Results

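The genes described here are 10 imprinted growth genes: H19, Igf2, Dlk1, Meg3, Plagl1, Peg3, Cdkn1c, Mest, Grb10 and Gnas. They were taken by name from a table of 54532 mouse genes, and each name matched a single gene. RNA-Seq of whole liver was available for 3 gSpns1-cKO and 3 control samples, and the question was how loss of the lysosomal lipid transporter SPNS1 after birth changes liver transcripts. The gSpns1-cKO mice were Spns1 fl/fl mice with Rosa26Cre-ERT2, a tamoxifen-dependent Cre recombinase that is active in the whole body, so the deletion was not limited to hepatocytes or to the liver. Tamoxifen was injected after birth and removes exon 3. The controls were Spns1 fl/fl littermates according to the methods, whereas the labels call them wild type. Both groups were on a C57BL/6 background. Sex and age of these livers were not given in the sources used here, nor was tamoxifen treatment of the controls. The labels number the livers within each group without stating that each came from a separate mouse, so the p-values measure the spread between these samples.

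An imprinted gene is read from only the maternal or only the paternal copy, because DNA methylation set in the egg or sperm marks the copies. Several of these genes control fetal growth: IGF2 is a fetal growth factor, CDKN1C stops the cell cycle and GRB10 dampens insulin and IGF receptor signaling. H19, Igf2, Dlk1 and many others are highly transcribed in fetal liver and are shut down in the weeks after birth. PLAGL1 and the H19 RNA are known as regulators of other imprinted genes. The reads of this study do not tell the parental copies apart, so only the summed transcript of both copies was measured.

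Of the 10 genes, 5 were higher in the livers of gSpns1-cKO mice: H19, Plagl1, Cdkn1c, Mest and Grb10. None was lower. Meg3, Peg3 and Gnas did not pass the threshold, and Igf2 and Dlk1 had too few counts to be tested. The call was an adjusted p under 0.05 in the quasi-likelihood test of edgeR, adjusted by Benjamini-Hochberg over all 15449 genes tested. By this rule 21.3% of all genes tested were higher, 20.5% lower and 41.8% changed in either direction, so a change by itself was common in these livers. The median log2 fold change of the 8 tested genes, H19 among them, was 1.16, against 0.014 for all genes tested. The 10 genes were chosen with earlier results of these data known, so this median only describes them. H19 passed the filter on low counts only through the gSpns1-cKO livers and therefore had to differ. The summed level of the 10 genes was 11.7 to 15.3 CPM (counts scaled for library size and composition) in control livers and 20.9 to 39.6 CPM in gSpns1-cKO livers.

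The libraries held 30350002 to 35295611 counts. In control livers 19623 to 20829 genes had a count, and in gSpns1-cKO livers 22267 to 22345. Libraries were scaled by TMM, a method that sets the bulk of genes equal between libraries, and the factors ran from 0.834 to 0.873 in control and from 1.16 to 1.18 in gSpns1-cKO livers. With library size alone this median over all genes tested moved from 0.014 to 0.46, with 7289 genes called higher and 970 lower in place of 3286 and 3166. Fold changes below are therefore relative to the bulk of genes. Spns1 itself (chr7:126370060-126377450, minus strand, GRCm38) had counts of 1008, 1562 and 875 in control livers, compared with 642, 1175 and 698 in gSpns1-cKO livers. Its level was 40.4 ± 8.98 CPM against 22.1 ± 7.40 CPM (SD, n = 3 in each group here and below). The log2 fold change was -0.87 (SE 0.25, adjusted p = 0.0300, edgeR), but it was -0.43 with an adjusted p of 0.213 with library size alone. The groups did not overlap, and the exact two-sided permutation test gave p = 0.1, the smallest that 3 against 3 allow.

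H19 and Mest, which were both higher, also carry microRNAs. miR-675 lies in an exon of H19 and miR-335 in an intron of Mest. The mature sequences are shown from RefSeq (GRCm38.p6) with the seed, bases 2 to 8 that pair with targets, in capitals.
mmu-miR-675-5p: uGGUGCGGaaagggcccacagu
mmu-miR-675-3p: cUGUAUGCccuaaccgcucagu
mmu-miR-335-5p: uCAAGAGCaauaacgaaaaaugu
mmu-miR-335-3p: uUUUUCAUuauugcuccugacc
The 4 seeds differ from each other. The libraries were selected for poly-A RNA and do not measure mature microRNAs. The separate row for the miR-675 gene held 0 counts in all 6 livers.

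CpG dinucleotides are the sites at which imprinted promoters are methylated. RefSeq promoter windows, 250 bases before to 50 bases after the transcription start, were found for 8 of the 10 genes (18 windows). H19 and Cdkn1c had none. For the other genes called higher, the window with the most CpG is shown on the gene's strand with each CpG in capitals.
Plagl1 promoter, chr10:13090582-13090881 (GRCm38.p6, plus strand): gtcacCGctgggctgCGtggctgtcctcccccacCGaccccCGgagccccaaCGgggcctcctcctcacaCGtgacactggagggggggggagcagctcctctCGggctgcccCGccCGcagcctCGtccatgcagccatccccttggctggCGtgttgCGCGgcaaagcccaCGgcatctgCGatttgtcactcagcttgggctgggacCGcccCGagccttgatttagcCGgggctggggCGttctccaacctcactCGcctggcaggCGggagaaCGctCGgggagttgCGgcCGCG
Grb10 promoter, chr11:12037371-12037670 (GRCm38.p6, minus strand): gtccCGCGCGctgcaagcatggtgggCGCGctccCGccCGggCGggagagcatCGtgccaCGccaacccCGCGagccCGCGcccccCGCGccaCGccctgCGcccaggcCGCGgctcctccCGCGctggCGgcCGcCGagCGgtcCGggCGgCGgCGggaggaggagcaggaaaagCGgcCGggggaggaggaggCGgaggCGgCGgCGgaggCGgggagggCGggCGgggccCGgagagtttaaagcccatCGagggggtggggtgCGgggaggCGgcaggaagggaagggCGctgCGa
Mest promoter, chr6:30737800-30738099 (GRCm38.p6, plus strand): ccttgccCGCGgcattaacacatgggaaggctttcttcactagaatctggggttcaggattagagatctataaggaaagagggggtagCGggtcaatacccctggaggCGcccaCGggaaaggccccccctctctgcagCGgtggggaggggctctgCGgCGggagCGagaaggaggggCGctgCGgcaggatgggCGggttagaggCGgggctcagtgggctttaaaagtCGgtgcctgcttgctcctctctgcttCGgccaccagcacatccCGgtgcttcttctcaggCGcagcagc
These windows hold 26, 45 and 17 CpG. The median of all 32851 windows was 7, with quartiles of 3 and 20. The count in the Plagl1 window was above that of 83.1% of windows, in the Grb10 window above 98.1% and in the Mest window above 68.6%. Of the genes that were not called or not tested, Gnas held up to 40 CpG in a window, Igf2 up to 24, Peg3 and Meg3 up to 13 and Dlk1 9, so the CpG counts of called and other genes overlapped. DNA methylation was not measured in these files.

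H19 (chr7:142575529-142578143, minus strand, a long noncoding RNA read from the maternal copy) had the largest fold change of the 10 genes. It had counts of 4, 5 and 1 in control livers, compared with 29, 58 and 38 in gSpns1-cKO livers. That corresponds to 0.115 ± 0.0659 CPM against 1.09 ± 0.370 CPM. Every gSpns1-cKO liver was above every control liver, which held for 27.1% of all genes tested (54.1% did not overlap in either direction). The log2 fold change was 3.18 (SE 0.54, 95% interval 1.99 to 4.37, adjusted p = 0.00118, edgeR), and 98.9% of the genes tested had a smaller one. H19 passed the filter on low counts only through the gSpns1-cKO livers and had to differ, so these values only describe it. The level stayed low: per kilobase of gene length it was 0.0466 CPM in control and 0.445 CPM in gSpns1-cKO livers. Of the exonic bases of H19, 9.1% are shared with the miR-675 gene and other small annotated genes, all with 0 counts.

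Igf2 (chr7:142650766-142666816, minus strand), the paternally expressed neighbor of H19, had 0 counts in each of the 3 control livers and 2, 1 and 0 counts in the gSpns1-cKO livers. No difference was detectable at this depth. A count of 0 allows up to 3 counts, which were 0.0763 to 0.119 CPM in these libraries. The Igf2 row is limited in a further way. In GENCODE M21, 64.5% of its exonic bases and 80.5% of its coding bases are also exonic in another gene, mainly Gm49394 on the same strand, which shares 3596 bases. Of 7 coding Igf2 transcripts, 5 are shared over all their coding bases. Gm49394 held 0 counts in all 6 livers. The counting program named in the labels, featureCounts, by default leaves out reads that lie over exons of more than 1 gene. The setting used was not given in the sources used here, and its part in the count was not tested.

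**Figure D1:**
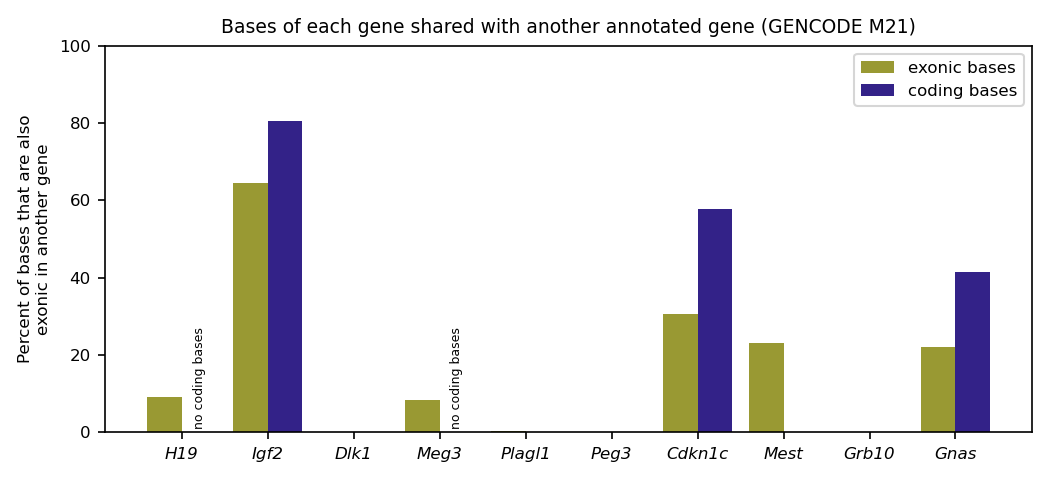
Percent of the exonic bases (olive) and coding bases (dark blue) of each of the 10 genes that are also exonic in another gene of GENCODE M21. Igf2, Cdkn1c and Gnas share 80.5%, 57.9% and 41.4% of their coding bases, while Dlk1 and Grb10 share none, and H19 and Meg3 have no coding bases.

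Plagl1 and Peg3 encode zinc finger proteins read from the paternal copy. Plagl1 (chr10:13060504-13131694, plus strand) had counts of 18, 29 and 16 in control livers, compared with 100, 136 and 171 in gSpns1-cKO livers. Its level was 0.738 ± 0.176 CPM against 3.56 ± 0.785 CPM, and the groups were well apart. Plagl1 rose by a log2 fold change of 2.26 (SE 0.30, 95% interval 1.60 to 2.91, adjusted p = 0.000272, edgeR), larger than that of 96.9% of the genes tested. Leaving out any single liver gave 2.09 to 2.47, past the threshold each time.

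Peg3 (chr7:6703892-6730431, minus strand) had counts of 189, 177 and 108 in control livers, compared with 226, 730 and 523 in gSpns1-cKO livers. In CPM the control livers lay at 6.72, 5.75 and 4.27 and the gSpns1-cKO livers at 6.28, 19 and 13.3. The first gSpns1-cKO liver lay below the highest control, and the other 2 lay above all controls. The log2 fold change of 1.20 (SE 0.41, 95% interval 0.21 to 2.20) did not pass the threshold, with an adjusted p of 0.0567 in edgeR. Without gSpns1-cKO replicate 1 it was 1.53 with an adjusted p of 0.000357, and it also passed in DESeq2 (adjusted p = 0.00162). Of 13 alternatives Peg3 passed in 5, and of those that left out a liver in 1. It did not pass in limma-voom (adjusted p = 0.0641). Nor did it pass in edgeR without control replicate 1, 2 or 3 (adjusted p = 0.102, 0.146 and 0.156).

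Cdkn1c (chr7:143458339-143461050, minus strand) encodes a cyclin-dependent kinase inhibitor and is read from the maternal copy. It had counts of 30, 20 and 39 in control livers, compared with 63, 210 and 132 in gSpns1-cKO livers. Its level was 1.09 ± 0.446 CPM in control and 3.53 ± 1.87 CPM in gSpns1-cKO livers. The lowest gSpns1-cKO liver (1.75 CPM) lay just above the highest control (1.54 CPM), so the groups did not overlap but nearly met. It was higher by a log2 fold change of 1.71 (SE 0.45, 95% interval 0.69 to 2.73, adjusted p = 0.0149, edgeR). The call was lost without control replicate 1 (adjusted p = 0.0544) and without control replicate 2 (adjusted p = 0.0616). Gm44732 on the opposite strand shares 30.7% of the exonic and 57.9% of the coding bases of Cdkn1c and held 0 counts. Whether counting used strand was not given, and without strand the reads of both genes cannot be told apart.

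Grb10 (chr11:11930508-12038683, minus strand), an adaptor that binds the insulin and IGF1 receptors, had counts of 99, 102 and 49 in control livers, compared with 197, 238 and 228 in gSpns1-cKO livers. The level was 2.92 ± 0.861 CPM against 5.83 ± 0.364 CPM. All gSpns1-cKO livers were close to each other and above the controls. This was a log2 fold change of 0.99 (SE 0.24, 95% interval 0.47 to 1.51, adjusted p = 0.00743, edgeR). None of its exonic bases is shared with another gene.

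Mest (chr6:30723547-30748465, plus strand) is read from the paternal copy and encodes a protein of the alpha/beta hydrolase family. It had counts of 31, 15 and 24 in control livers, compared with 60, 78 and 70 in gSpns1-cKO livers. The level was 0.846 ± 0.320 CPM against 1.83 ± 0.187 CPM, without overlap. Mest rose by a log2 fold change of 1.12 (SE 0.35, 95% interval 0.35 to 1.89, adjusted p = 0.0256, edgeR). It missed the threshold without control replicate 2, gSpns1-cKO replicate 2 or gSpns1-cKO replicate 3 (adjusted p = 0.0702, 0.0705 and 0.0676). Copg2 on the opposite strand, a coat protein gene, shares 23.1% of the exonic bases of Mest and none of its coding bases. Copg2 had 820, 891 and 621 counts in control and 979, 785 and 847 in gSpns1-cKO livers, and its log2 fold change was -0.26 (SE 0.13, adjusted p = 0.152, edgeR).

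Dlk1 and Meg3 are neighbors on chromosome 12. Dlk1 (chr12:109452823-109463336, plus strand), which encodes a membrane protein related to Notch ligands, had counts of 1, 2 and 0 in control livers, compared with 0, 1 and 1 in gSpns1-cKO livers. It shares no exonic bases, so in contrast to Igf2 its row was not limited by another gene. No difference was detectable at this depth. Meg3 (chr12:109541001-109571726, plus strand), a maternally read long noncoding RNA, had counts of 26, 24 and 11 in control livers, compared with 23, 17 and 52 in gSpns1-cKO livers. The groups overlapped, and a single gSpns1-cKO liver held the highest value. Its log2 fold change was 0.16 (SE 0.48, 95% interval -0.91 to 1.24, adjusted p = 0.81, edgeR), and it turned to -0.40 without gSpns1-cKO replicate 3 and to -0.09 without control replicate 3. Further along this domain, named for their position after their values were seen, the maternally read RNA Rian had 21, 15 and 18 counts against 17, 7 and 9 and did not pass the threshold (log2 fold change -1.13, SE 0.49, adjusted p = 0.088, edgeR). Mirg, also maternally read, had 1, 0 and 0 counts against 6, 8 and 11 and was not tested. Dio3, the paternally read thyroid hormone deiodinase gene at the far end, had 4, 0 and 2 counts against 5, 32 and 21 and was not tested either.

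Gnas (chr2:174284320-174346744, plus strand) encodes the stimulatory G protein subunit Gs-alpha and further transcripts with parent-specific promoters. It had counts of 32, 52 and 48 in control livers, compared with 51, 52 and 59 in gSpns1-cKO livers. The level was 1.57 ± 0.392 CPM against 1.42 ± 0.0731 CPM, and the groups overlapped. The log2 fold change was -0.14 (SE 0.29, 95% interval -0.79 to 0.51, adjusted p = 0.727, edgeR), and with library size alone it was 0.30. Per kilobase the row was at 0.141 CPM in control livers. Gnai2, Gna11 and Gnaq, which encode other G protein alpha subunits and were chosen after the values were seen, were at 31.3, 13.9 and 2.77 CPM per kilobase. In GENCODE M21, 22% of the exonic and 41.4% of the coding bases of Gnas are exonic in another gene. In the 4 transcripts with 1137 to 1182 coding bases, the size of Gs-alpha, the shared part was 96.4% to 97.5% of the coding bases. The main partners are Gm20721 and Nespas on the opposite strand, with 0, 0 and 0 against 0, 3 and 0 counts and 0, 2 and 0 against 0, 0 and 0 counts. Whether reads over these shared bases were left out of the Gnas row was not tested.

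**Figure D2:**
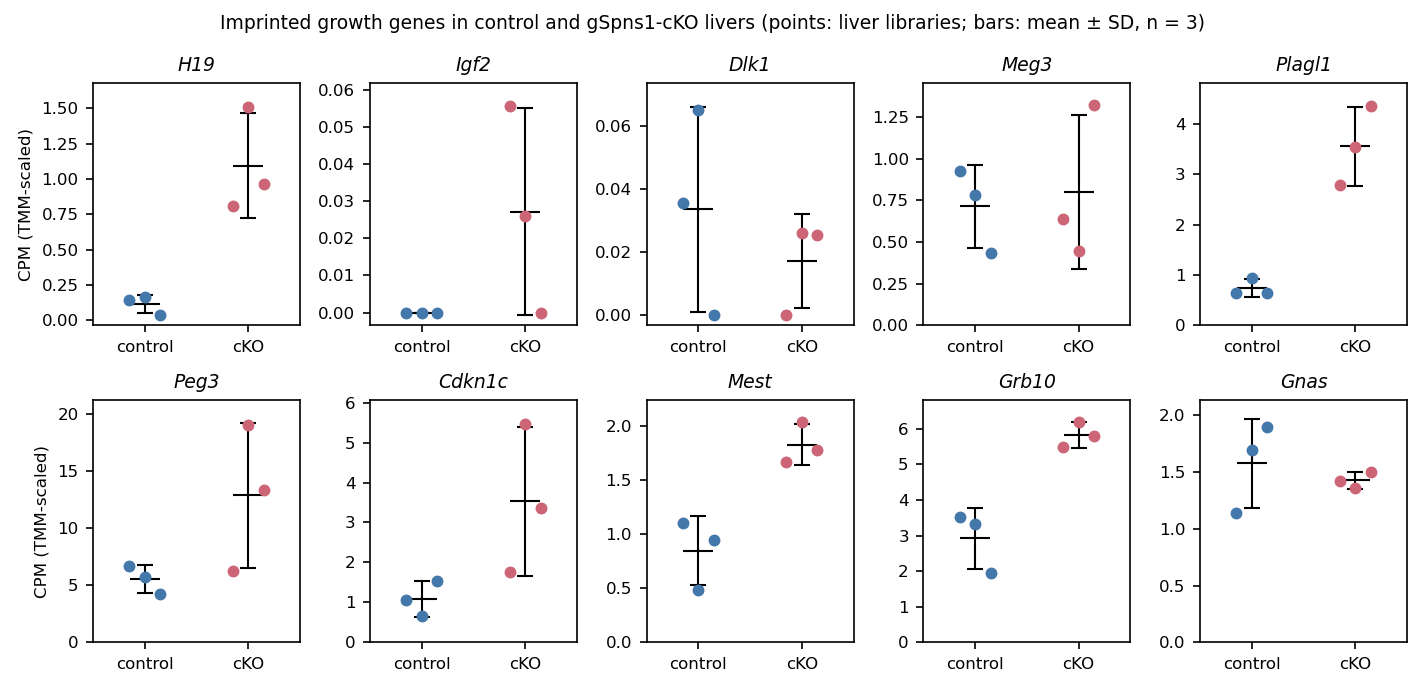
Level of each of the 10 genes in every liver, in CPM scaled by TMM, for control (blue) and gSpns1-cKO livers (red), with replicates 1 to 3 from left to right and the mean ± SD as black bars. H19, Plagl1, Cdkn1c, Mest and Grb10 do not overlap between the groups, while Igf2 and Dlk1 rest on at most 2 counts a liver.

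**Figure D3:**
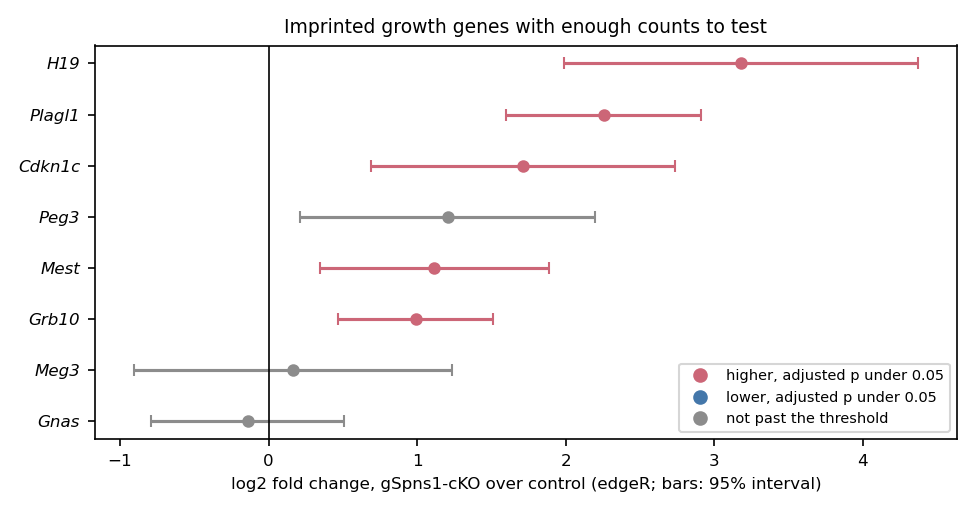
Log2 fold change of gSpns1-cKO over control for the 8 imprinted growth genes with enough counts, with 95% intervals from edgeR. H19 (3.18), Plagl1 (2.26), Cdkn1c (1.71), Mest (1.12) and Grb10 (0.99) are past the threshold in red, and the interval of Peg3 lies above 0 although its adjusted p was 0.0567.

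Levels per kilobase of the full gene length put the 10 genes in order. Igf2, Cdkn1c and Gnas share 80.5%, 57.9% and 41.4% of their coding bases with other genes. Whether reads over these bases were left out was not tested, so the places of these 3 genes are uncertain. In control livers Cdkn1c (0.533 ± 0.219 CPM per kilobase), Peg3 (0.419 ± 0.0928) and Grb10 (0.322 ± 0.0947) were highest, and neighbors among these 3 lay within the spread of each other. Mest (0.214 ± 0.0812), Gnas (0.141 ± 0.0350), Plagl1 (0.0944 ± 0.0226), H19 (0.0466 ± 0.0268) and Meg3 (0.0394 ± 0.0139) followed. In gSpns1-cKO livers Cdkn1c was again first with 1.73 ± 0.916 CPM per kilobase, followed by Peg3 with 0.966 ± 0.479 and Grb10 with 0.641 ± 0.0401. Mest (0.463 ± 0.0474), Plagl1 (0.455 ± 0.10) and H19 (0.445 ± 0.150) were then nearly equal, above Gnas (0.127 ± 0.00653) and Meg3 (0.0443 ± 0.0255). Igf2 and Dlk1 were lowest in both groups.

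Of the 3 gSpns1-cKO livers, replicate 1 had the lowest level of the gSpns1-cKO livers in all 5 genes called higher, which was the case for 42.0% of all genes called higher. The gap was small in Grb10 and Mest. Its summed level of the 10 genes was 20.9 CPM, against 39.6 and 32.4 CPM in replicates 2 and 3, a gap that came mostly from Peg3, which was not called. Without this liver the number of the 10 genes called higher was 6, Peg3 being added. Without control replicate 2 it was 3, namely H19, Plagl1 and Grb10.

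The genes with the pattern most like that of H19 over the 6 libraries included Tbx20, a T-box transcription factor gene, and Pdp1, which encodes a pyruvate dehydrogenase phosphatase. Likeness was the root mean square distance of log2 CPM centered on the mean of the 6 libraries, over 12917 genes whose mean reached 1 CPM. The distances were 0.201 and 0.251, the smallest of all genes compared, against a median of 1.48. Tbx20 had counts of 66, 68 and 34 in control livers, compared with 348, 601 and 572 in gSpns1-cKO livers. No such comparison was made for Igf2, whose counts were near 0.

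Other imprinted genes showed how far the pattern extended. Maternally or paternally read names the copy read where a gene is imprinted, which for some genes holds only in certain tissues such as placenta. The copy read in these livers was not measured. Of 26 further paternally read genes, 5 were higher, 3 lower and 7 not past the threshold, and 11 had too few counts. Of 18 further maternally read genes, 3 were higher, 3 lower and 6 not past the threshold, and 6 were not tested. The median log2 fold changes were 0.37 and -0.18. Over both lists 8 of 44 genes were higher and 6 lower, with a median of 0.064, close to that of all genes tested. Among all genes tested, 21.3% were higher and 20.5% lower. Of the 8 higher genes, 4 (Airn, Phlda2, Asb4 and Atp10a) passed the filter on low counts only through the gSpns1-cKO livers, so their direction was fixed, and none of them was tested when at least 10 counts were asked of every library, under which 5 of the 44 genes were higher. Magel2, Snurf, Rtl1 and Klf14 had no count in any liver. All 216 exonic bases of Snurf are shared with Snrpn on the same strand, which had counts in every liver. Whether reads over these bases were left out was not tested, so the Snurf row cannot show absence. With library size alone 12 of the 44 were higher and 3 lower.

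Near Cdkn1c on chromosome 7, some neighbors of the same domain were higher and others were not. Kcnq1ot1, the paternally read antisense RNA of this domain, had counts of 30, 25 and 21 in control livers, compared with 93, 130 and 102 in gSpns1-cKO livers (log2 fold change 1.66, SE 0.27, adjusted p = 0.00101, edgeR). Phlda2, a maternally read gene that restrains placental growth, had 2, 12 and 3 counts against 55, 43 and 32 (2.51, SE 0.57, adjusted p = 0.00543, edgeR). Phlda2 passed the filter on low counts only through the gSpns1-cKO livers and had to differ. Kcnq1, a potassium channel gene named for its position after its values were seen, had 29, 26 and 25 counts against 40, 67 and 33 and did not pass the threshold (0.37, SE 0.36, adjusted p = 0.442, edgeR), and Ascl2 had too few counts. Slc22a18, which lies between Cdkn1c and Phlda2 and was named in the same way, was at 128 ± 10.8 CPM against 114 ± 10.7 CPM and did not pass the threshold (-0.18, SE 0.12, adjusted p = 0.256, edgeR).

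The imprinted cluster on chromosome 6 that holds Sgce and Peg10 had genes that moved in opposite directions. Sgce, the epsilon-sarcoglycan gene, had counts of 262, 316 and 134 in control livers, compared with 510, 456 and 640 in gSpns1-cKO livers, and rose by a log2 fold change of 0.76 (SE 0.23, adjusted p = 0.0269, edgeR). Peg10, a gene derived from a retrotransposon whose start lies next to that of Sgce, had 77, 105 and 50 counts against 33, 48 and 36 and was lower (-1.40, SE 0.30, adjusted p = 0.00416, edgeR). Of the maternally read genes there, Asb4 had 6, 4 and 3 counts against 45, 23 and 38 and was higher (2.57, SE 0.50, adjusted p = 0.00258, edgeR), whereas Ppp1r9a had 703, 628 and 400 counts against 273, 187 and 219 and was lower (-1.76, SE 0.21, adjusted p = 0.000203, edgeR). Asb4 passed the filter on low counts only through the gSpns1-cKO livers and had to differ. Sgce missed the threshold without gSpns1-cKO replicate 1 (adjusted p = 0.0562) and without gSpns1-cKO replicate 3 (adjusted p = 0.0934).

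**Figure D4:**
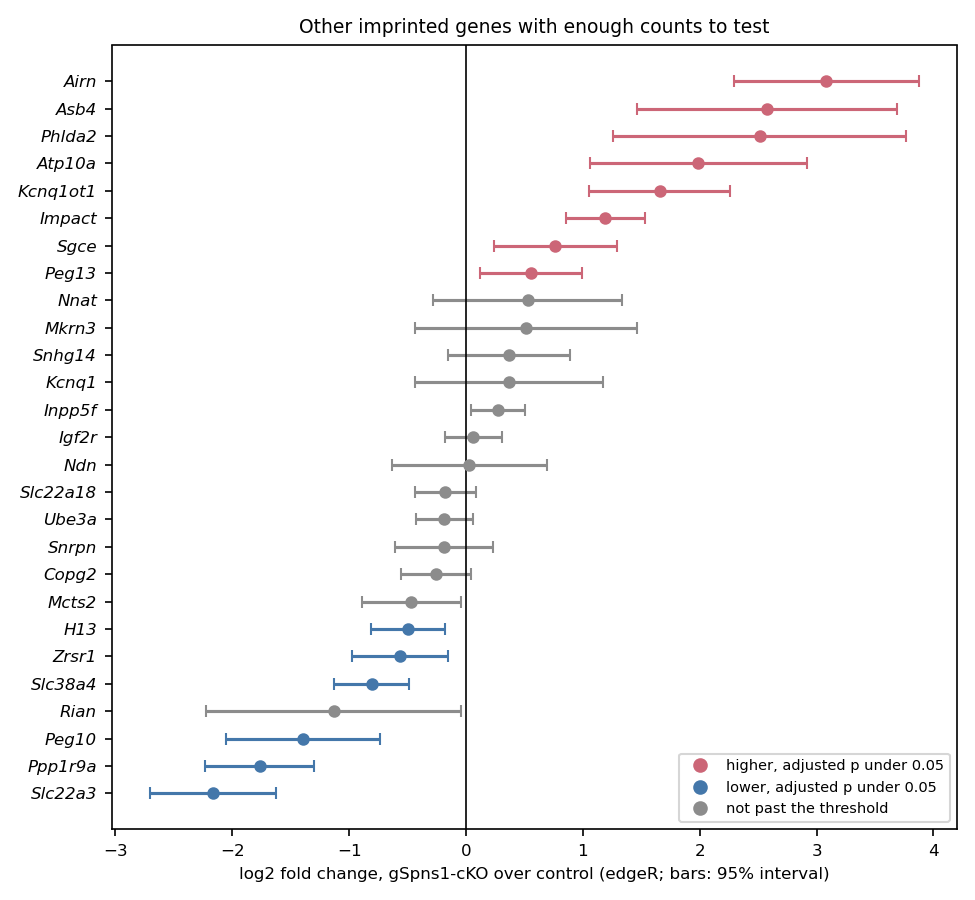
Log2 fold change of gSpns1-cKO over control for the 27 other imprinted genes with enough counts, with 95% intervals from edgeR, red for higher, blue for lower and grey for not past the threshold. Airn (3.08) stands at the top and Slc22a3 (-2.17) at the bottom, with 8 genes higher and 6 lower.

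IGF2R clears IGF2 from the cell surface, and its gene is imprinted. Airn (chr17:12741311-12860136, plus strand), the paternally read antisense RNA that starts within Igf2r, had counts of 9, 9 and 7 in control livers, compared with 64, 119 and 108 in gSpns1-cKO livers. Its log2 fold change was 3.08 (SE 0.36, 95% interval 2.30 to 3.87, adjusted p = 0.000128, edgeR). Igf2r was at 45.9 ± 4.91 CPM against 48.0 ± 3.06 CPM, with a log2 fold change of 0.06 (SE 0.11, 95% interval -0.18 to 0.31, adjusted p = 0.675, edgeR). It was called higher with library size alone (0.51, adjusted p = 0.00245) and turned to -0.01 without control replicate 2. Slc22a3, an organic cation transporter gene of this cluster that was listed as maternally read, had 198, 220 and 194 counts against 41, 83 and 61. Which copy was read in these livers was not measured. Its log2 fold change was -2.17 (SE 0.24, 95% interval -2.70 to -1.63, adjusted p = 0.000109, edgeR). Airn, like H19, passed the filter on low counts only through the gSpns1-cKO livers and had to differ. In these livers Airn was higher, Slc22a3 lower, and Igf2r not past the threshold. The exons of Airn and the coding bases of Slc22a3 are not shared with another gene, but 9.3% of the exonic bases of Slc22a3 (420 bases) are shared with Plg on the opposite strand. Plg, the plasminogen gene, had counts of 42486, 60269 and 51729 in control livers, compared with 43593, 52043 and 51224 in gSpns1-cKO livers. Without strand the reads of this stretch cannot be told apart, and its part in the Slc22a3 row was not tested.

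**Figure D5:**
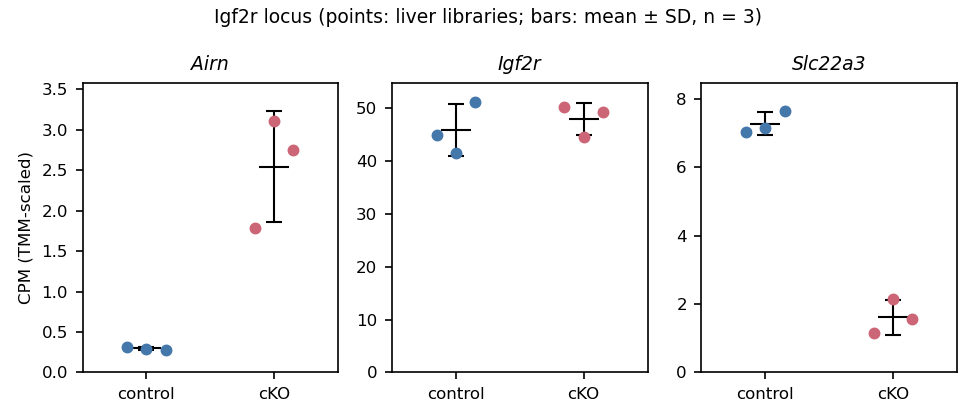
Levels of Airn, Igf2r and Slc22a3 in every liver, in CPM scaled by TMM, for control (blue) and gSpns1-cKO livers (red), with the mean ± SD as black bars. Airn is at 0.296 ± 0.0220 against 2.54 ± 0.685 CPM and Slc22a3 at 7.28 ± 0.335 against 1.62 ± 0.515 CPM, both without overlap, while the Igf2r values overlap.

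Outside these clusters, Impact, a paternally read regulator of the stress kinase GCN2, was at 12.0 ± 2.15 CPM against 27.5 ± 3.14 CPM (1.19, SE 0.15, adjusted p = 0.000233, edgeR). Slc38a4, a paternally read amino acid transporter gene that was the most abundant of the 44 genes, was at 1256 ± 81.1 CPM against 719 ± 66.5 CPM. It was lower by a log2 fold change of -0.81 (SE 0.15, adjusted p = 0.00166, edgeR), which became -0.36 with an adjusted p of 0.0505 with library size alone. Atp10a, which had 10, 8 and 6 counts against 44, 54 and 31 and passed the filter only through the gSpns1-cKO livers, was higher (1.99, SE 0.42, adjusted p = 0.00395, edgeR). Zrsr1 and H13 were lower by -0.56 (adjusted p = 0.0326) and -0.50 (adjusted p = 0.0179) in edgeR, and neither call held with library size alone. Of the exonic bases of Zrsr1, 9.2% are shared with Commd1 on the opposite strand.

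The DNA methylation marks of imprinted genes are kept by DNA methyltransferases and KRAB zinc finger proteins. H19 is further held down in liver after birth by the repressor ZHX2. A list of 16 genes held such factors and also others, among them Ctcf, Zbtb20 and the Tet genes, whose products act against DNA methylation. Of these 16 genes, 5 were higher, 2 lower, 7 not past the threshold and 2 not tested. Among all genes tested, 21.3% were higher and 20.5% lower, so such counts alone do not set this list apart. Dnmt1, the maintenance methyltransferase gene, was at 9.16 ± 0.968 CPM against 16.5 ± 2.46 CPM (0.85, SE 0.15, adjusted p = 0.00154, edgeR). Tet2 rose by 0.91 (adjusted p = 0.00476) and Smchd1 by 0.89 (adjusted p = 0.000515), while Tet3 was lower by -0.68 (adjusted p = 0.00127, all from edgeR) but by -0.24 with an adjusted p of 0.127 with library size alone. Uhrf1, the partner of DNMT1, had 12, 1 and 7 counts against 136, 28 and 36 and passed the filter only through the gSpns1-cKO livers. Its call (2.88, SE 0.90, adjusted p = 0.0363, edgeR) rested largely on a single liver and was lost without gSpns1-cKO replicate 1 (1.75, adjusted p = 0.0626). It was also lost without any of the controls. Zfp445, a KRAB zinc finger gene that guards imprints, was lower by -0.73 (adjusted p = 0.0459, edgeR), a call that was lost without any single control, without gSpns1-cKO replicate 2 or 3, and with library size alone (-0.29). Zhx2 was at 19.4 ± 2.17 CPM against 18.9 ± 5.12 CPM, with a log2 fold change of -0.04 (SE 0.18, 95% interval -0.44 to 0.37, adjusted p = 0.889, edgeR) whose sign changed with scaling and with left-out livers.

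Igf2 acts through receptors and binding proteins that liver makes or releases. Of 10 genes, which were such receptors and binding proteins and the related ligand gene Igf1, 3 were higher and 3 lower. The shares among all genes tested were 21.3% higher and 20.5% lower. Igfbp1, a secreted IGF binding protein, was at 56.7 ± 17.7 CPM against 670 ± 120 CPM (3.56, SE 0.26, adjusted p = 2.71e-05, edgeR). The IGF1 receptor gene Igf1r had 76, 52 and 29 counts against 156, 246 and 256 (1.63, SE 0.31, adjusted p = 0.00221, edgeR), and Igfbp3 rose by 0.85 (adjusted p = 0.00323, edgeR). Igf1, the main postnatal growth factor of liver, was lower at 345 ± 33.2 CPM against 596 ± 17.9 CPM in control (-0.79, SE 0.13, adjusted p = 0.00116, edgeR). Igfbp4 was lower by -0.72 (adjusted p = 0.00666), with -0.28 and an adjusted p of 0.183 with library size alone. The insulin receptor gene Insr was lower by -0.40 (adjusted p = 0.0158), but with library size alone the value was 0.044.

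Markers of other liver cell types moved with the groups. Whole liver was measured, so fewer cells of a type and less RNA per cell cannot be told apart. Of 8 hepatocyte markers 5 were lower and none higher, and their summed level was 106386 to 116883 CPM in control and 62340 to 72201 CPM in gSpns1-cKO livers. Most of this sum was Alb, at 69348 against 41886 CPM. Cps1 lay higher in every gSpns1-cKO liver (2833 against 3633 CPM) but did not pass the threshold. Marker calls are relative to the bulk of genes, and with library size alone the median over all genes tested was 0.46 in place of 0.014. Among all genes tested, 21.3% were called higher and 20.5% lower. All 8 stellate cell markers were higher (125 to 147 CPM against 253 to 276 CPM), as were all 6 macrophage markers (143 to 238 CPM against 481 to 703 CPM). Of 6 cholangiocyte markers 5 were higher (44.2 to 62.9 CPM against 171 to 280 CPM), and of 6 endothelial markers also 5 (137 to 153 CPM against 202 to 249 CPM). Most of the cholangiocyte sum was Spp1, at 44.6 against 195 CPM. Of 7 fibroblast and mesothelial markers 2 were higher, with summed levels of 13.2 to 33.1 CPM against 34.0 to 58.7 CPM. The part of these cell types in the higher levels of H19, Plagl1, Cdkn1c, Mest and Grb10 was not tested.

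Markers of fetal hepatocytes, like H19, are shut down in liver after birth. Afp, the fetal serum protein, was at 3.15 CPM in control and 4.42 CPM in gSpns1-cKO livers and did not pass the threshold (0.49, adjusted p = 0.299, edgeR). Gpc3, a cell surface proteoglycan gene, likewise did not pass (0.57, adjusted p = 0.261, edgeR). Lin28b, Igf2bp1, Igf2bp3 and Hmga2 had too few counts. The summed level of the 6 markers was 5.10 to 5.73 CPM in control and 7.43 to 8.14 CPM in gSpns1-cKO livers. None of the 6 cycling cell markers passed the threshold, with 4 tested and summed levels of 3.21 to 6.64 CPM against 2.35 to 11.8 CPM. Of 6 lymphocyte markers 1 was higher (1.98 to 2.85 CPM against 4.38 to 5.66 CPM), and of 6 erythroid markers 1 was higher and 1 lower (111 to 123 CPM against 42.9 to 86.1 CPM). The lower erythroid marker was Alas2, at 87.9 against 9.79 CPM, and the higher was Hba-a1, at 21.2 against 47.3 CPM.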

How the data were processed

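RNA was extracted from whole liver, selected for poly-A RNA and sequenced by a commercial service. Per the labels, reads were handled with fastp, aligned with HISAT2 2.0.5 to mm10 and assigned to genes with featureCounts 1.5.0-p3. The strand and overlap settings were not given in the sources used here. The authors deposited whole-number counts per gene and library, which were the only values tested. The deposited FPKM values, which divide counts by gene length and library total, were not used. The columns of the authors' own comparison (a normalized signal per group, a log2 fold change and a p-value) were not used either. Deposited gene lengths gave the levels per kilobase.

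Of 54532 genes listed, 26590 had a count. GENCODE M21 held 54495 of the listed genes (GRCm38), 98.3% with the same coordinates, and exon sharing was computed from that annotation. Counts were tested in R 4.3.3 with edgeR 4.0.16 (filterByExpr, TMM, robust glmQLFit, glmQLFTest, no covariate) across 15449 genes with Benjamini-Hochberg adjustment. The SE is the log2 fold change divided by the square root of F. For CPM, counts were divided by the library size times its TMM factor. The likeness to H19 used log2 CPM with a prior count of 2. Exact permutation tests of 3 against 3 cannot go below 0.1. Floors of 3 counts cover counting error only, since reads carry no molecular identifiers. Chi-square tests of the counts showed no library deposited in duplicate. Scripts were tested on simulated data.

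Groups came from the labels. The replicate numbers were not taken to pair the livers. Alternatives were DESeq2 1.42.0, limma-voom (limma 3.58.1), library size only, upper-quartile scaling, 2 count filters (at least 1 in any or 10 in every library), a replicate block and leaving out each liver. The members and gene lists were chosen with earlier results of these data known. Named genes were Spns1, the 10 members, up to 4 genes per direction with the largest log2 fold change in each other list, Igf2r, Peg10, Sgce, Slc38a4 and Zhx2 whatever their values, neighbors that share bases with members, up to 3 markers per cell type and the 3 genes most like H19, of which 1 is not reported here. For Igf2 no likeness was computed because its counts did not exceed the floor.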

Additional observations from a re-analysis of the deposited data

How the results depend on the processing

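Over 13 alternatives none of the 10 imprinted growth genes was called lower. The number called higher lay between 3 and 6 when a liver was left out (3 without control replicate 2) and between 4 and 6 otherwise, 4 being the count when at least 10 counts were asked of every library, a filter that removes H19. Calls of Plagl1 and Grb10 passed in all 13 alternatives. H19 passed in the 12 that could test it. With the reported filter, however, it entered only through the gSpns1-cKO livers and had to differ, so these passes are not separate support. The median log2 fold change was 0.99 to 1.35 with a liver left out and 1.60 with library size only. For the 44 other imprinted genes, 6 to 9 were higher and 5 to 7 lower with a liver left out. With library size only 3 were lower, and with at least 10 counts in every library 5 were higher, since fewer genes were tested. The count over all genes stayed within 1.5 times that of the reported test, 6452. Spns1 lay between -1.18 and -0.68 with a liver left out (-0.68, -0.74 and -0.74 and past the threshold no longer without control replicate 2, gSpns1-cKO replicate 1 or gSpns1-cKO replicate 3), at -0.43 (adjusted p = 0.213) with library size only and at -0.74 (adjusted p = 0.0635) with upper-quartile scaling. Peg3 passed with library size only (1.65, adjusted p = 0.0175), upper-quartile scaling (1.34, adjusted p = 0.0492) and at least 1 count in any library (adjusted p = 0.00337), besides the passing fits given above. In the other 8 alternatives Peg3 did not pass. Signs changed with library size only for Gnas (0.30), Insr (0.044) and Zhx2 (0.41). Zhx2 was also above 0 with upper-quartile scaling (0.096), at least 10 counts in every library (0.0072), without control replicate 2 (0.052), without gSpns1-cKO replicate 1 (0.085) and without gSpns1-cKO replicate 2 (0.057). With a liver left out, Zhx2 ranged from -0.28 to 0.085, Igf2r from -0.011 (without control replicate 2) to 0.14, and Meg3 from -0.40 (without gSpns1-cKO replicate 3) to 0.46, with -0.09 without control replicate 3. Apart from the effect of fewer genes or samples tested, the cause was not tested. At this depth Igf2 and Dlk1 could not be compared.

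The replicate numbers in the labels were checked for pairing. Deviations from the group means of same-numbered livers correlated at 0.037, 0.033 and -0.028, so no common deviation was seen over the genes tested as a whole. Whether same-numbered livers share a litter or batch was not given in the sources used here. With the replicate block, 6100 genes were called in place of 6452, 5 of the 10 imprinted growth genes were higher and 0 lower, with a median of 1.13, and 7 and 6 of the other imprinted genes were higher and lower, Sgce being lost (adjusted p = 0.0551). Spns1 was at -0.90 with an SE of 0.11 in place of 0.25 (adjusted p = 0.000679, edgeR). The SE fell for some genes and rose for others. For Zfp445 it was 0.12 in place of 0.25, and for Sgce 0.27 in place of 0.23.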
